A study of Mus musculus with 9 samples.

Results

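Lymphatic endothelial nuclei were examined in single-nucleus RNA data from 9 mouse hearts. A barcode was kept when it had at least 500 detected genes and at most 5% mitochondrial UMIs (unique molecular identifiers, the counted transcripts). A kept nucleus was a member when it held at least 1 UMI for at least 3 of the 6 markers Prox1, Mmrn1, Reln, Flt4, Lyve1 and Ccl21a, and for at most 1 of the 5 macrophage genes F13a1, Mrc1, Csf1r, Msr1 and Adgre1. This gave 518 members, 1.17% of the 44430 kept nuclei from 56766 barcodes.

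All animals were male wild-type mice of 9 to 10 weeks, and each library came from 1 flash-frozen heart, with 3 hearts per group. NS-Sham hearts (called sham below) had the chest opened without coronary occlusion and received normal saline (NS). NS-I/R hearts (saline-I/R) underwent ischemia and reperfusion (I/R), with the left anterior descending artery occluded for 45 min and reperfused for 24 h, and received saline. Enpa-I/R hearts (enpatoran-I/R) had the same surgery and received intraperitoneal enpatoran, an antagonist of the endosomal RNA sensor TLR7, at 5 mg/kg. The first of the injections was given 1 h before occlusion, and the sources differ on whether the second came straight after ischemia or later. No sham heart received enpatoran, so the effect of the compound without injury was not measured. The libraries held 19651794 to 38970153 UMIs, and members numbered 39, 70 and 47 in the sham hearts, 74, 67 and 79 in the saline-I/R hearts and 58, 35 and 49 in the enpatoran-I/R hearts. Summed over members, a library held 165598 to 427192 UMIs. Of 56340 distinct barcode sequences, 425 occurred in more than 1 library, and none was shared by members of different libraries.

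Lymphatic endothelium lines the blind-ended vessels that return tissue fluid and leukocytes to the blood. PROX1 sets its identity, VEGFR3 (the product of Flt4) receives the growth signal VEGF-C, and the chemokine CCL21 guides dendritic cells and T cells into the vessel through CCR7. In the heart these vessels drain the myocardium, and fluid and inflammatory cells collect there after an infarct. TLR7 senses single-stranded RNA, such as that released by injured cells, and signals toward NF-kB and interferon genes, chiefly in immune cells.

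The label held for most members and not for all. Unsupervised clustering of the kept nuclei placed 454 members (87.6%) in 1 cluster of 565 nuclei, called the main cluster here, whose leading genes were Reln, Mmrn1, Sema3a, Ccl21a, Flt4 and Pard6g. The other 64 members were scattered over other clusters, and 40 of them carried exactly 3 of the markers. Their median depth was 6477.5 UMIs against 3329 for members in the main cluster, and their deepest nucleus had 122819 UMIs. Clusters 1 and 2, whose leading genes included Hs3st5 in both, Myh7b in the first and Rpl3l and Ckm in the second, each held 6 of them, with 31.2% and 19.5% of the UMIs of the outside members. Another 12 lay in a cluster led by Tmem108, Nrg1, Npr3 and Vwf. The outside members therefore keep no lymphatic name here, yet they supplied 32.1% of all member UMIs. That share was 46.9%, 40.2% and 3.76% in the sham hearts, 44.8%, 39.5% and 13.2% in the saline-I/R hearts, and 13.6%, 10.6% and 44.5% in the enpatoran-I/R hearts. It differed widely within every group, and in enpatoran-I/R replicate 3 a single nucleus held 41.2% of the member UMIs. Results are given over all members, and many of them also over the 454 members in the main cluster. That second set was formed after the data were seen. Its clustering left out the genes of the rule and of the gene lists, and the genes it used were still tested below.

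The share of nuclei in the main cluster was higher with more markers, which describes the rule. With at most 1 macrophage gene, nuclei with 2 markers numbered 713, of which 7.15% lay in the main cluster, and their median depth was 8385 UMIs. With 3 markers there were 117 nuclei, 65.8% of them in the main cluster, at a median of 2994 UMIs. The 118 nuclei with 4 markers, 150 with 5 and 133 with all 6 lay in it to 89.8%, 94.7% and 97.0%. At the other limit, 190 members carried 1 macrophage gene, and 20 nuclei with at least 3 markers were left out because they carried 2. Nuclei just inside the marker threshold were thus the most mixed members.

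Genes that the rule did not use separated the members from blood endothelial nuclei of the same hearts. These 11809 nuclei were chosen by at least 3 of Flt1, Kdr, Cdh5, Ptprb, Emcn and Pecam1, with at most 1 lymphatic marker. In a paired fit over the 9 libraries, 2601 of 12601 tested genes (20.6%) differed at an adjusted p under 0.05, with 984 higher (7.81%) and 1617 lower (12.8%) in members. Of 22 further genes known from lymphatic endothelium, all tested, 20 were higher in members and 1, Gata2, was lower; the median log2 difference of the list was 2.41 against -0.09 for all tested genes. Sox18, a transcription factor gene that acts upstream of Prox1, had a log2 difference of -0.37 and did not pass (adjusted p = 0.32).

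After every nucleus was thinned to 1000 UMIs, Maf, a transcription factor gene, had a UMI in 57.4% of 509 members and 1.10% of 10765 blood endothelial nuclei. Pdpn, which encodes the lymphatic surface glycoprotein podoplanin, was found in 18.1% against 0.957%. Tbx1, a transcription factor gene needed for lymphatic development, was found in 12.2% against 0.0743%. For each of these genes the share was higher in members in all 9 libraries. Sema3a, a repulsive guidance cue, was found in 56.0% of members against 2.73%. The cell-polarity gene Pard6g stood at 36.5% against 0.882%, and the mechanosensitive channel gene Piezo2 at 30.1% against 2.18%. Nr2f2, which encodes the venous and lymphatic factor COUP-TFII, was found in 43.0% against 8.24%. Gata2, a transcription factor gene of valve-forming endothelium, was the exception with 4.72% against 8.07%. Some of the 20 genes called higher in the paired fit were near the detection limit. Ptx3 had a UMI in 2 of 509 thinned members and Foxc2 in 5. Their shares were higher in members in only 1 and 4 of the 9 libraries.

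**Figure D1:**
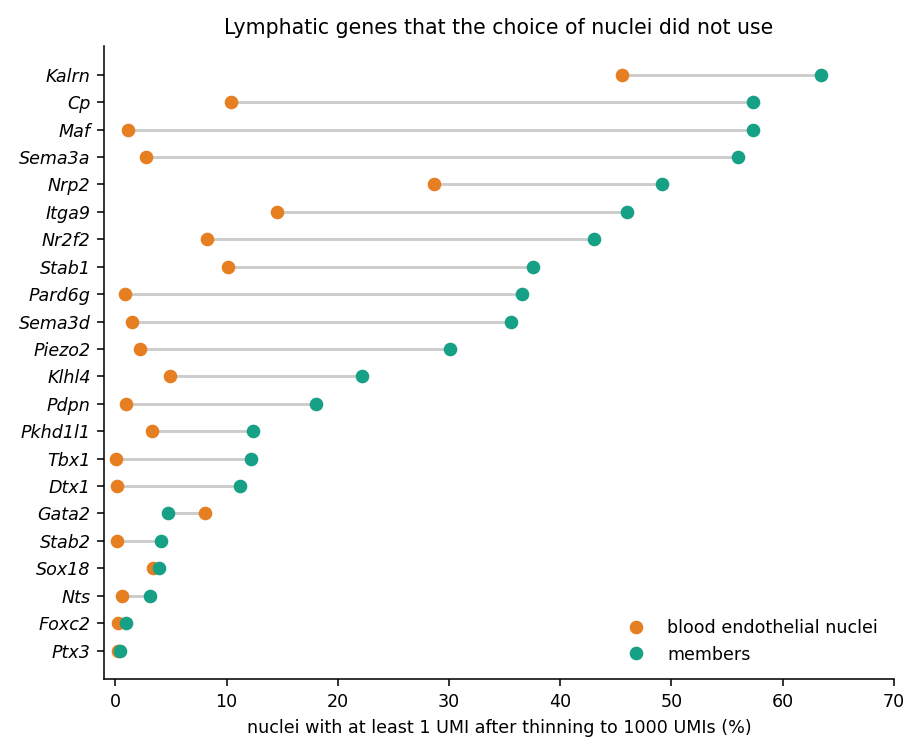
Percent of nuclei with at least 1 UMI (horizontal axis), after thinning to 1000 UMIs, for 22 lymphatic genes outside the rule, in members (green) and blood endothelial nuclei (orange), over all 9 libraries. Maf lies at 57.4% against 1.10% and Pard6g at 36.5% against 0.882%, while Gata2 is reversed at 4.72% against 8.07%.

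The genes with the largest excess over blood endothelial nuclei included several with neuronal names. Apba2, an adaptor protein gene, averaged 323 CPM (a counts-per-million value, scaled by TMM factors) in members and 2.14 in blood endothelial nuclei, a log2 difference of 7.24 (SE 0.20). Tbx1 differed by 6.92 (SE 0.31), the growth-cone gene Gap43 by 6.89 (SE 0.37) and the oxidase gene Duox2 by 6.80 (SE 0.38). Maf differed by 6.33 (SE 0.14) and Il7, which encodes the lymphocyte survival cytokine interleukin-7, by 5.84 (SE 0.27; 98.4 against 1.48 CPM). The next genes by size were Sh3gl3, Pld5, Tc2n, Rimbp2, Kbtbd11 and Dtx1, with log2 differences between 5.45 (Dtx1) and 6.80 (Sh3gl3). All 12 were higher in members in each alternative that was run. Lower in members were Vegfc, the ligand of VEGFR3, by -3.72 (SE 0.19), and the fatty acid carriers Fabp4 by -2.97 (SE 0.21) and Cd36 by -2.17 (SE 0.29). Ackr2, a scavenger receptor for inflammatory chemokines, was higher by 4.96 (SE 0.21).

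Each rule marker was read in nuclei chosen by the other 5 markers, and Ccl21a and Mmrn1 stood lower in saline-I/R. These values are a description with no test. Ccl21a had a UMI, after thinning to 1000 UMIs, in 44.7%, 38.1% and 63.6% of nuclei in the sham hearts, in 20.0%, 17.5% and 26.0% in the saline-I/R hearts and in 47.3%, 45.5% and 51.1% in the enpatoran-I/R hearts. All saline-I/R hearts lay below every heart of the other groups, which overlapped each other. The symbol Ccl21a covers 2 gene identifiers of near-identical sequence, whose counts were summed.

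Mmrn1, which encodes a secreted vessel-wall protein, was found in 68.0% ± 3.13 of sham nuclei (SD, n = 3), 52.2% ± 2.53 of saline-I/R nuclei and 63.7% ± 9.5 of enpatoran-I/R nuclei. Its saline-I/R hearts lay below all sham hearts, and enpatoran-I/R replicate 1 overlapped the saline-I/R range. Lyve1, the hyaluronan receptor gene of initial lymphatics, ranged from 11.8% to 42.1% in sham, 42.2% to 47.3% in saline-I/R and 28.9% to 50.0% in enpatoran-I/R. Its sham hearts lay below the saline-I/R hearts, by a narrow gap except in replicate 2. Prox1 averaged 46.6%, 40.8% and 40.1%, Reln 76.8%, 72.3% and 75.0%, and Flt4 53.8%, 55.3% and 60.0% in sham, saline-I/R and enpatoran-I/R. For Prox1, Reln and Flt4 the hearts of the 3 groups overlapped.

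**Figure D2:**
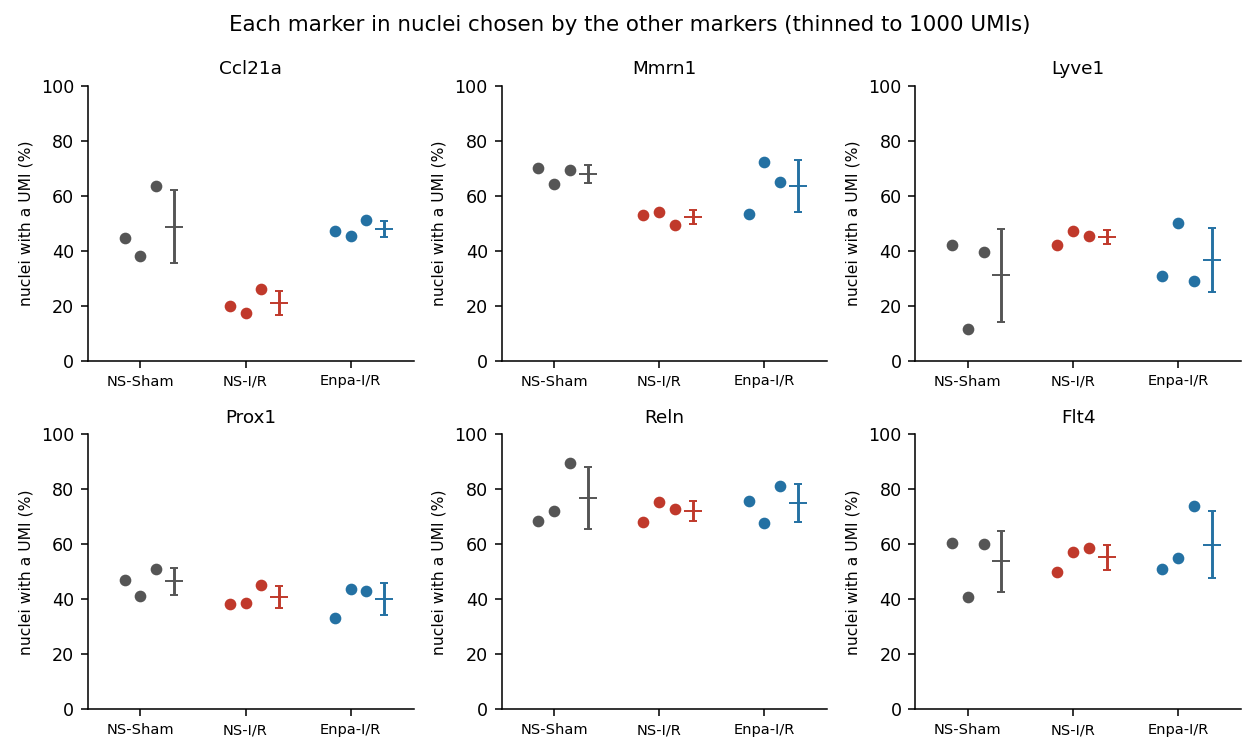
Percent of nuclei with at least 1 UMI (vertical axis), after thinning to 1000 UMIs, for each marker in nuclei chosen by the other 5; each point is 1 heart and the bars show mean ± SD of 3 hearts. Ccl21a is the marker whose NS-I/R hearts (17.5% to 26.0%) sit below all other hearts.

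Members made up 1.10%, 1.01% and 1.34% of kept nuclei in the sham hearts, 1.46%, 1.23% and 1.37% in the saline-I/R hearts and 0.976%, 1.07% and 0.992% in the enpatoran-I/R hearts. The saline-I/R and sham ranges overlapped, and the mean difference of 0.199 percentage points had p = 0.2 by a two-sided exact permutation test. Every enpatoran-I/R heart lay below every saline-I/R heart, a mean difference of -0.339 percentage points with exact permutation p = 0.1, the smallest value that 3 against 3 hearts can give. Enpatoran-I/R differed from sham by -0.140 percentage points (exact permutation p = 0.2). With the rule applied after thinning each nucleus to 1000 UMIs, the means were 0.914%, 0.970% and 0.776%, and the enpatoran-I/R difference from saline-I/R had exact permutation p = 0.2. Main-cluster members alone averaged 1.06%, 1.13% and 0.906% of kept nuclei in sham, saline-I/R and enpatoran-I/R. There saline-I/R differed from sham by 0.0656 percentage points (exact permutation p = 0.6). Enpatoran-I/R differed from saline-I/R by -0.221 (exact permutation p = 0.1). Ccl21a and Mmrn1, whose levels differed between groups, are part of the rule, and their part in these shares was not tested.

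Counted among endothelial nuclei only, members made up 3.81% in sham, 5.31% in saline-I/R and 3.62% in enpatoran-I/R. On that denominator saline-I/R exceeded sham by 1.5 percentage points and enpatoran-I/R differed from saline-I/R by -1.69, each with exact permutation p = 0.1, again the smallest possible. The members counted here include the 64 outside the main cluster. A share of nuclei cannot tell more lymphatic nuclei from fewer nuclei of other kinds.

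**Figure D3:**
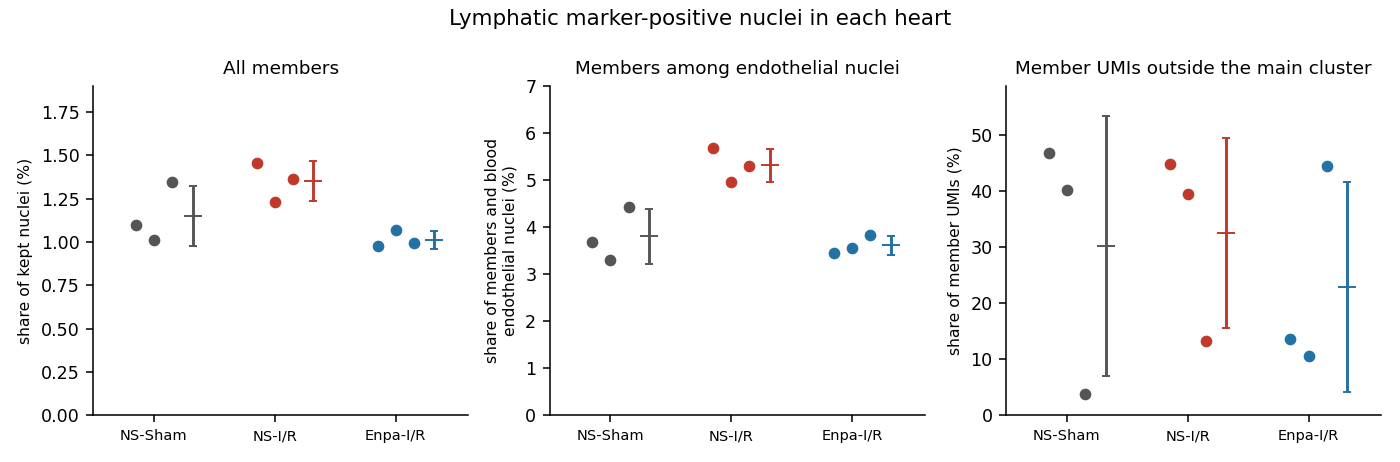
Members per heart as a percent of kept nuclei (left) and of members plus blood endothelial nuclei (middle), and the percent of member UMIs held by the 64 members outside the main cluster (right); points are hearts, bars mean ± SD of 3 hearts. NS-I/R hearts lie above all Enpa-I/R hearts in the left panel, and the right panel runs from 3.76% to 46.9% within NS-Sham alone.

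The first contrast, saline-I/R against sham, asks what ischemia and 24 h of reperfusion changed in these nuclei. Counts were summed over the members of each heart and fitted with edgeR's quasi-likelihood test, with Benjamini-Hochberg adjustment over all tested genes. Among the gene lists, the stress and metallothionein, matrix and inflammatory response lists held genes that rose and none that fell, and the fatty acid list held genes that fell and none that rose. Of 6322 tested genes, 672 (10.6%) passed at an adjusted p under 0.05, with 315 higher (4.98%) and 357 lower (5.65%) in saline-I/R. In the main-cluster members 787 of 5009 genes passed (15.7%), 322 higher (6.43%) and 465 lower (9.28%). The calls over all members and over main-cluster members shared 425 genes, 63.2% of the former and 54.0% of the latter, all in the same direction. The number over all members leaned on single hearts: it was 185 without sham replicate 1, 104 without sham replicate 2, 110 without saline-I/R replicate 1 and 426 without saline-I/R replicate 2. Leaving out 1 heart in the main-cluster fit gave 529 to 955.

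Metallothioneins are small proteins that bind zinc and copper, and the genes Mt1 and Mt2 rose. Mt2 had no UMI in members of any sham heart and stood at 491, 355 and 152 CPM in the saline-I/R hearts and 122, 66.4 and 87.1 CPM in the enpatoran-I/R hearts. It was at least 100-fold higher in saline-I/R than in sham (355 UMIs against none, set against 3 counts over the group; adjusted p = 0.00201), and at least 54.9-fold in main-cluster members. Mt1 stood at 31.9, 22.8 and 26.7 CPM in sham, 736, 568 and 247 in saline-I/R and 289, 121 and 242 in enpatoran-I/R. All saline-I/R hearts lay above all sham hearts, with a log2 difference of 4.25 (SE 0.49, adjusted p = 0.00201). Nuclei of other kinds carried these transcripts as well: the nuclei outside the members held 0.0208, 1.12 and 0.516 Mt2 UMIs per nucleus in sham, saline-I/R and enpatoran-I/R, against 0, 1.65 and 0.438 in members. How much of the member signal was free RNA was not tested.

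The 250 bases before the start of each metallothionein gene are printed because the zinc-sensing factor MTF-1 is known to drive these genes through metal response elements. The sequences are from RefSeq (GRCm38.p6, plus strand), at chr8:94172368-94172617 for Mt2 and chr8:94178839-94179088 for Mt1. Capitals mark each match to TGCNCNC, the core of the metal response element, on either strand.
Mt2: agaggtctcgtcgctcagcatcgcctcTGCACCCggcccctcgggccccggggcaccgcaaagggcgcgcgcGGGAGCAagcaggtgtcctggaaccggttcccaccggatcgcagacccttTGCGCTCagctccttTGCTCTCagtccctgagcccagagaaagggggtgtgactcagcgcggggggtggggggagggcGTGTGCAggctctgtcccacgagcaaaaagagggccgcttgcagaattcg
Mt1: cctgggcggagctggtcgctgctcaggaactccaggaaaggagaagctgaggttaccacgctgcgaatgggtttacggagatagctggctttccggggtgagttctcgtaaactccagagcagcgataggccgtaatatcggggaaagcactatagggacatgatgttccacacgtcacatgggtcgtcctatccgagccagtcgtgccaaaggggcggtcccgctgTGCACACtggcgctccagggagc
The Mt2 window held 5 matches and the Mt1 window 1. Each count covers only the printed window, whose place depends on the annotated start, and bases beyond it were not searched. The counts therefore do not compare the whole promoters of these genes. Among 32851 promoter windows of the same length, 44.4% held at least 1 match and 0.344% held at least 5. A match is a description of these letters and not a measured binding site.

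Zinc and stress genes rose with the metallothioneins. Of 18 genes in the stress, metallothionein and chaperone list, 11 were tested over all members, 8 rose and none fell, with a median log2 difference of 1.77 against 0.04 for all tested genes; in main-cluster members 7 of 11 rose. Slc39a14, a zinc importer gene, stood at 112, 96.9 and 60.1 CPM in sham, 714, 805 and 464 in saline-I/R and 358, 271 and 416 in enpatoran-I/R. No saline-I/R heart overlapped another group, and the log2 difference from sham was 2.85 (SE 0.32, adjusted p = 0.00201). Fkbp5, a co-chaperone gene of the glucocorticoid receptor, rose by 1.77 (SE 0.30, adjusted p = 0.00827). Cdkn1a, the cell-cycle inhibitor gene p21, rose by 3.14 (SE 0.66), and its adjusted p exceeded 0.05 without sham replicate 1 (0.0548), sham replicate 2 (0.0599) or saline-I/R replicate 1 (0.064). Hspb1, Hsp90aa1 and Txnrd1 were the other genes of the list that rose over all members.

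Inflammatory response genes rose in part. Of 22 genes in the NF-kB and cytokine list, 17 were tested, 8 rose and none fell (median log2 difference 1.31); 5 of 14 rose in main-cluster members. Lcn2, an iron-siderophore binding protein gene, stood at 39.9, 22.8 and 53.4 CPM in sham, 342, 288 and 267 in saline-I/R and 267, 235 and 103 in enpatoran-I/R. Both injured groups lay above all sham hearts, and saline-I/R differed by 3.03 on the log2 scale (SE 0.41, adjusted p = 0.00263). Neutrophils are a known source of Lcn2, and summed CPM of 6 neutrophil markers in members ran from 0 to 3.31 in sham, 48.7 to 242 in saline-I/R and 23.7 to 272 in enpatoran-I/R. Lcn2 stood at 1.43 UMIs per nucleus in saline-I/R members and 0.297 in the other nuclei of those hearts. Members already held 0.18 UMIs per nucleus in sham, against 0.00116 elsewhere.

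Cytokine signalling through STAT3 was represented by Socs3, Osmr and Stat3. Socs3, a feedback inhibitor gene, stood at 3.99, 0 and 0 CPM in sham, 89.0, 78.3 and 19.8 in saline-I/R and 22.8, 30.2 and 39.6 in enpatoran-I/R. Sham held 1 UMI in all against 67 in saline-I/R, a ratio of 56.6 (95% counting interval 9.82 to 2270), and the call (adjusted p = 0.0107) was lost without sham replicate 2 (0.0599). Osmr, the oncostatin M receptor gene, rose by 1.35 (SE 0.30, adjusted p = 0.0201), a call lost without sham replicate 1 (0.0858), sham replicate 2 (0.107) or saline-I/R replicate 1 (0.0841). Over all members Stat3 rose by 0.99 (SE 0.28, adjusted p = 0.046), a call lost in 13 of 21 alternatives, with adjusted p up to 0.2 without sham replicate 2. In main-cluster members Osmr rose by 1.18 (SE 0.26), Socs3 by 4.95 (SE 0.97) and Stat3 by 0.99 (SE 0.24), and no alternative ended these calls. Of 22 interferon response genes, 13 were tested over all members and none passed in any of the 3 contrasts. Of all tested genes, 10.6% passed between saline-I/R and sham. The share was 0% between enpatoran-I/R and saline-I/R and 0.158% between enpatoran-I/R and sham. With so few calls among all genes, the list's count in the enpatoran contrasts says little about these genes.

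Genes of leukocyte traffic were mostly too sparse to test: 9 of 22 entered the fit, 1 rose and 1 fell, where 10.6% of all tested genes passed. The gene that rose was Selp, the adhesion receptor P-selectin, at 0, 5.70 and 0 CPM in sham, 270, 129 and 49.4 in saline-I/R and 7.61, 60.3 and 7.92 in enpatoran-I/R. All saline-I/R hearts lay above sham, with 161 UMIs against 2, a ratio of 68.0 (95% counting interval 18.5 to 567; adjusted p = 0.0118). The call was lost without sham replicate 1 (0.0504) or replicate 2 (0.0599). In main-cluster members Selp had 70 UMIs against 2, a ratio of 28.7 (95% counting interval 7.65 to 242), and no alternative ended the call. Il7, which was higher in members than in blood endothelial nuclei, fell: it stood at 120, 134 and 280 CPM in sham, 24.3, 36.4 and 52.7 in saline-I/R and 129, 115 and 87.1 in enpatoran-I/R. Every saline-I/R heart lay below every other heart, and the difference from sham was -2.20 (SE 0.40, adjusted p = 0.0113), with adjusted p = 0.0546 without saline-I/R replicate 1 and 0.108 with no macrophage gene allowed in a member. It was -2.37 (SE 0.32) in main-cluster members, where no alternative ended the call. In those members Ackr2 rose by 1.08 (SE 0.33, adjusted p = 0.0259), a call lost in 5 of 13 alternatives, among them without sham replicate 2 (0.16) or 3 (0.0957) and without saline-I/R replicate 1 (0.0678) or 3 (0.061).

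**Figure D4:**
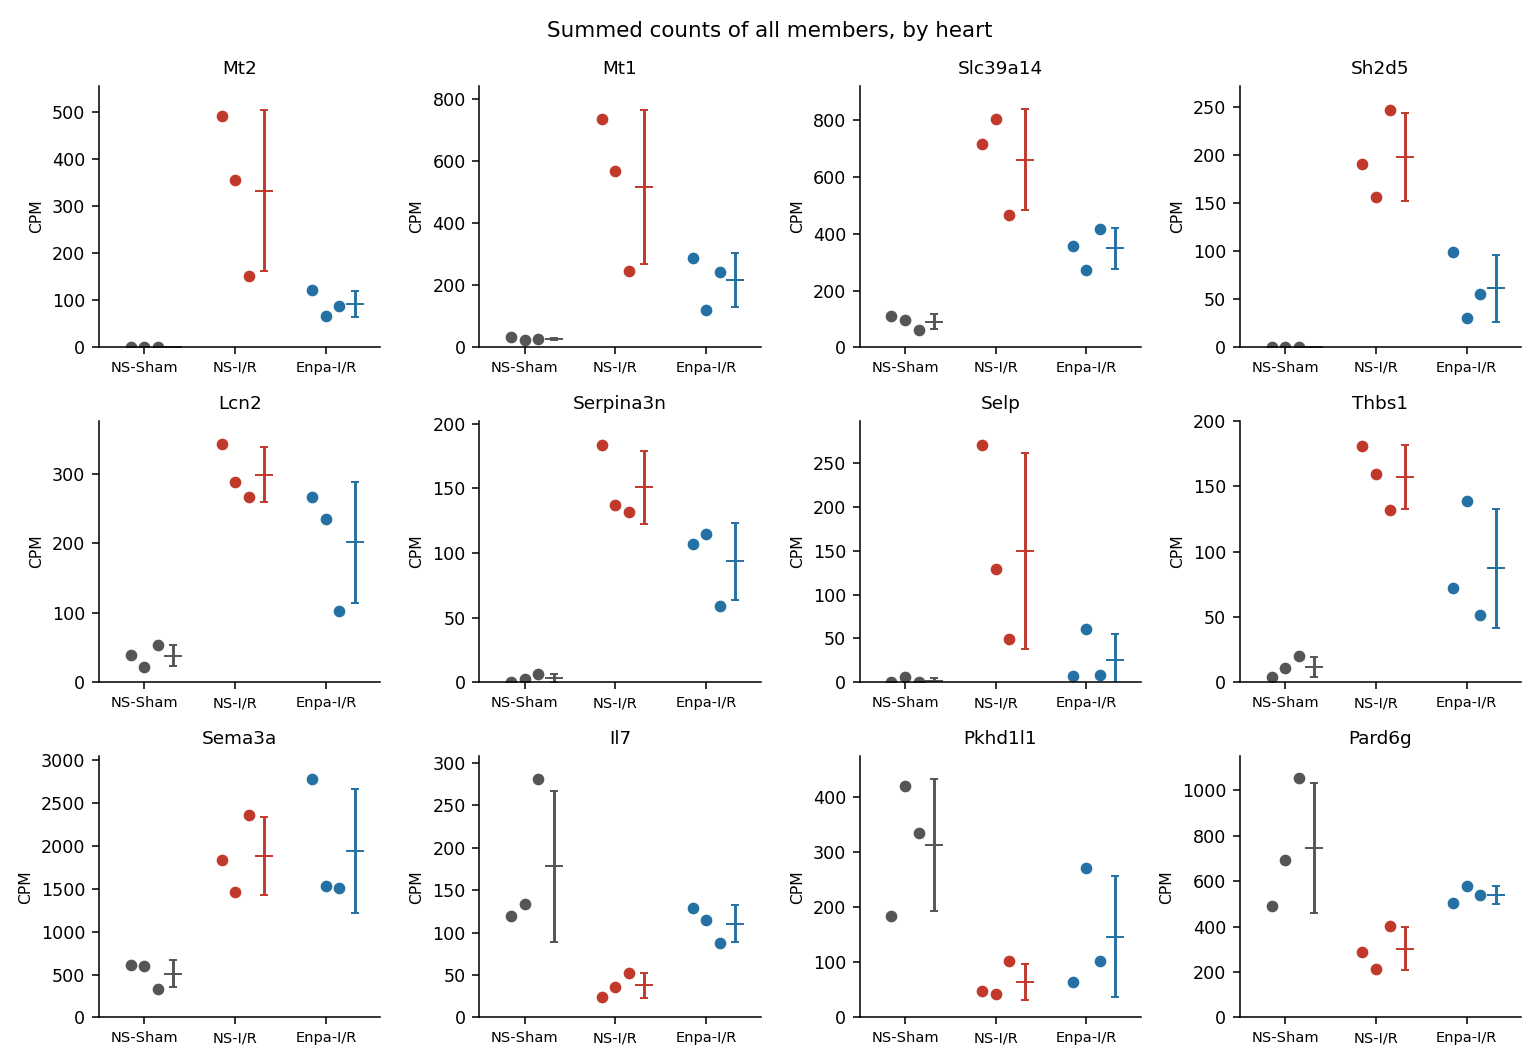
TMM-scaled CPM (vertical axis) of 12 genes summed over all members of each heart; each point is 1 heart and the bars show mean ± SD of 3 hearts. Mt2 is at 0 in all NS-Sham hearts and at 152 to 491 CPM in NS-I/R, and Il7 falls to 24.3 to 52.7 CPM in NS-I/R.

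Lymphatic identity genes outside the rule moved in both directions. Of the 22 genes, 20 were tested over all members, 1 rose and 2 fell, with a median log2 difference of -0.07 against 0.04 for all tested genes. Among all genes tested there, 4.98% rose and 5.65% fell. In main-cluster members 2 of 18 rose and 4 fell, where 6.43% of all tested genes rose and 9.28% fell. Sema3a stood at 611, 596 and 327 CPM in sham, 1830, 1460 and 2362 in saline-I/R and 2775, 1526 and 1509 in enpatoran-I/R. Both injured groups lay above all sham hearts. The saline-I/R difference was 1.87 (SE 0.36, adjusted p = 0.012; 0.0524 without sham replicate 2 and 0.0775 with no macrophage gene allowed in a member), and in main-cluster members it was 1.89 (SE 0.28, adjusted p = 6.59e-05). Other nuclei held 0.069 to 0.139 Sema3a UMIs per nucleus, against 2.65, 8.68 and 9.19 in sham, saline-I/R and enpatoran-I/R members.

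Pard6g stood at 491, 696 and 1055 CPM in sham, 288, 215 and 405 in saline-I/R and 503, 579 and 539 in enpatoran-I/R. The saline-I/R hearts lay below all others, with a difference from sham of -1.30 (SE 0.32, adjusted p = 0.0284). Pkhd1l1, a large membrane protein gene, differed by -2.30 (SE 0.52, adjusted p = 0.0208). Both calls were lost without some hearts: Pard6g without sham replicate 2 (0.0746), sham replicate 3 (0.0709), saline-I/R replicate 1 (0.103) or saline-I/R replicate 2 (0.0787), and Pkhd1l1 without sham replicate 2 (0.0865), saline-I/R replicate 1 (0.0883) or saline-I/R replicate 2 (0.0586). In main-cluster members Pard6g fell (-1.24, SE 0.22), as did Pkhd1l1 (-2.62, SE 0.43), and neither call was lost. There, Klhl4 (-1.65, SE 0.33) and Itga9 (-1.06, SE 0.23), the integrin alpha-9 gene of lymphatic valves, also fell. Maf rose by 0.89 (SE 0.23, adjusted p = 0.00916), a call lost without sham replicate 2 (0.0506) or saline-I/R replicate 2 (0.0556). Pdpn did not pass in either set: 119 ± 31.8 CPM in sham and 220 ± 159 in saline-I/R over all members (SD, n = 3).

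Of 24 growth-factor ligand and receptor genes, 20 were tested over all members and 2 passed, near the 10.6% of all tested genes. S1pr1, a sphingosine 1-phosphate receptor gene, rose by 1.21 (SE 0.34, adjusted p = 0.042) and Vegfa fell. In main-cluster members 4 of 16 rose (S1pr1, Ramp2, Fgfr1 and Angpt2) and 2 fell (Vegfa and Nrp1), where 15.7% of all tested genes passed. The S1pr1 call was lost in 11 of 21 alternatives over all members, among them without any sham heart (0.0801 to 0.131), without saline-I/R replicate 1 (0.163) and without enpatoran-I/R replicate 1 (0.0523). Angpt2, the ligand gene that is known to favour lymphatic growth through TIE2, averaged 129 ± 52.1 CPM in sham, 302 ± 69.3 in saline-I/R and 142 ± 77.1 in enpatoran-I/R there. Its rise was 1.17 (SE 0.33, adjusted p = 0.0169), lost without sham replicate 1 (0.0542) or replicate 3 (0.0944). Vegfa fell by 2.79 (SE 0.35), from 241 ± 55.5 to 34.3 ± 8.91 CPM in main-cluster members. Vegfa was more abundant in the other nuclei of the same hearts, at 2.22 and 1.30 UMIs per nucleus in sham and saline-I/R, than in main-cluster members at 0.808 and 0.119.

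None of 15 tested junction genes passed over all members, and in main-cluster members 3 of 14 did: Cdh5 (0.85, SE 0.25) and Ctnna1 (0.95, SE 0.22), the VE-cadherin and alpha-catenin genes, rose and Arhgap29 (-0.61, SE 0.21) fell. The calls of Cdh5 and Arhgap29 were lost in 5 and 11 of 13 alternatives, and that of Ctnna1 in none. Of all tested genes, 10.6% passed over all members and 15.7% in main-cluster members. Counts from lists this short were not tested against those shares. Of 15 tested valve, flow and guidance genes, 1 rose and 1 fell over all members, near the share of all tested genes. The flow-responsive gene Klf2 rose by 0.95 (SE 0.28, adjusted p = 0.0498), and that call was lost in 18 of 21 alternatives. Celsr1, a planar polarity gene of valve formation, differed by -1.69 (SE 0.48, adjusted p = 0.0438), a call lost in 9 of 16 alternatives, among them without any 1 of the sham or saline-I/R hearts (0.0599 to 0.144). It was not among the genes tested in main-cluster members. There 3 of 12 genes of the list rose and 1 fell. Fn1, the fibronectin gene, rose by 1.88 (SE 0.40) and no alternative ended its call, while those of Klf2 (0.97, SE 0.30) and the mechanosensitive channel gene Piezo1 (0.82, SE 0.27) were lost in 5 and 8 of 13. Efnb2, the ephrin-B2 gene, differed by -0.98 (SE 0.27), a call lost without sham replicate 2 (0.0696) or saline-I/R replicate 1 (0.0782).

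Over all members, where 10.6% of all tested genes passed, 16 Notch, BMP and TGF-beta genes were tested. Eng, Id1 and Notch4 rose and none fell, calls lost in 8 of 21, 10 of 20 and 12 of 18 alternatives. In main-cluster members none of these passed, with adjusted p = 0.137, 0.121 and 0.111, and the list's median log2 difference was -0.29 against 0.52 over all members. Of 14 genes tested there, the growth factor gene Tgfb1 rose (adjusted p = 0.0478) from 78.1 ± 22.9 to 156 ± 51.9 CPM (SD, n = 3), a call lost in 5 of 13 alternatives. The receptor gene Tgfbr2 fell by 1.09 (SE 0.24), and no alternative ended that call. Of all genes tested in main-cluster members, 15.7% passed. Division genes were near the detection limit: 1 of 16 was tested and it did not pass.

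Of 20 matrix and basement membrane genes, 19 were tested over all members, 10 rose and none fell, with a median log2 difference of 1.11; in main-cluster members 7 of 17 rose. Fibroblasts and pericytes also express many of these genes. Summed CPM of the fibroblast markers over all members ran from 157 to 217 in sham, 262 to 711 in saline-I/R and 216 to 622 in enpatoran-I/R. For the pericyte markers the ranges were 78.5 to 278, 184 to 727 and 148 to 335. In main-cluster members the groups overlapped, at 125 to 218 in sham and 130 to 248.96 in saline-I/R for fibroblast markers and 81.6 to 243 and 115 to 237 for pericyte markers. The part of these cells in the result over all members was not tested. Col4a1, a collagen IV chain gene of basement membranes, stood at 315, 239 and 354 CPM in sham, 1318, 853 and 962 in saline-I/R and 857, 947 and 650 in enpatoran-I/R. Both injured groups lay above sham, and the saline-I/R difference was 1.79 (SE 0.28, adjusted p = 0.00539). Thbs1, which encodes thrombospondin-1, an activator of latent TGF-beta, rose by 3.81 (SE 0.50, adjusted p = 0.00263) and the protease gene Adamts1 by 3.24 (SE 0.43, adjusted p = 0.00263). Nid1, the basement membrane linker nidogen-1, rose by 2.13 (SE 0.36, adjusted p = 0.00827; 0.0501 without sham replicate 2).

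Fatty acid genes fell together with cardiomyocyte transcripts. Of 18 genes, 15 were tested over all members, 4 fell (Acsl1, Slc27a1, Acadm and Hadhb) and none rose, with a median of -0.96; in main-cluster members 6 of 13 fell. There, Cd36 fell from 498 ± 172 to 157 ± 80.5 CPM, a log2 difference of -1.70 (SE 0.38). Lpl (-1.77, SE 0.26), Acsl1 (-2.38, SE 0.43) and the regulator gene Ppara (-3.80, SE 0.72) fell as well. All 6 cardiomyocyte markers fell in main-cluster members too, and their summed CPM ran from 7922 to 13861 in sham, 1178 to 1942 in saline-I/R and 1721 to 4545 in enpatoran-I/R. The other nuclei of the same hearts held more of these transcripts throughout: Cd36 stood at 7.05 and 7.82 UMIs per nucleus in sham and saline-I/R, against 1.67 and 0.547 in main-cluster members. The part of cardiomyocyte RNA in the fall of the fatty acid genes was not tested.

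Among the genes with the largest rise, several lie outside these lists. Sh2d5, an SH2-domain adaptor gene, had no UMI in sham members and stood at 191, 157 and 247 CPM in saline-I/R and 99.0, 30.2 and 55.4 in enpatoran-I/R. It was at least 56.9-fold higher in saline-I/R (202 UMIs against none). The level of Sh2d5 was 0.915 UMIs per nucleus in saline-I/R members against 0.115 in all nuclei outside the members. Those nuclei are of many kinds, so the value does not compare members with any single kind. Sh2d5 was the first leading gene of a cluster other than the main one. That cluster had 1879 nuclei, 6 of them members, and its leading genes included Sema7a, Kit and Cd93. Serpina3n, an acute-phase protease inhibitor gene, stood at 0, 2.85 and 6.68 CPM in sham, 183, 137 and 132 in saline-I/R and 107, 115 and 59.4 in enpatoran-I/R, with 157 against 2 UMIs (ratio 66.4, 95% counting interval 18.1 to 553). Hmga2, a chromatin protein gene of growing tissue, rose from 1 UMI in sham to 95 in saline-I/R (ratio 80.3, 95% counting interval 14.1 to 3205). Kcnma1, the BK potassium channel gene, rose by 4.52 (SE 0.82, adjusted p = 0.0107; 0.0599 without sham replicate 2). Hmga2, Kcnma1 and Serpina3n were also leading genes of clusters outside the main one, with 2266, 611 and 2725 nuclei. Angptl4, a lipoprotein lipase inhibitor gene, rose from 3 UMIs to 105, and Dbn1 (4.14, SE 0.57) and Tyms (2 UMIs to 53) rose as well. Nppa, the atrial natriuretic peptide gene, stood at 21.6, 1205 and 26.3 CPM in saline-I/R, so that 1 heart carried its rise, and that call was lost in 8 of 15 alternatives.

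The genes with the largest fall over all members were mostly less abundant in main-cluster members than in the other nuclei. Hs3st5, a heparan sulfate sulfotransferase gene that also leads clusters 1 and 2, stood at 826, 673 and 287 CPM in sham, 2.70, 2.80 and 0 in saline-I/R and 15.2, 12.1 and 170 in enpatoran-I/R. Saline-I/R lay far below sham in every heart, and the log2 difference was -7.98 (SE 1.06, adjusted p = 0.00263). In sham it stood at 0.709 UMIs per nucleus in main-cluster members and 3.10 in nuclei outside the members, where saline-I/R held 0.141. The other genes on that list were Asb18, Cdh4, Fam13a, Itgb6, Cacna1e, Kcnd2, Ctla4, Lrtm1, Hectd2os, Cabcoco1 and Fat3, with log2 differences between -6.20 (Asb18) and -4.36 (Fat3). Among them Cacna1e, a calcium channel gene, and Fat3, a large cadherin gene, stood higher in main-cluster members than in the other nuclei of sham hearts, at 0.456 against 0.0267 UMIs per nucleus for Cacna1e and 0.219 against 0.0886 for Fat3. Cacna1e differed by -5.26 over all members (SE 0.78) and by -5.11 in main-cluster members (SE 0.76), and no alternative ended either call.

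In main-cluster members the list of largest falls named other genes. Il33, an alarmin cytokine gene of barrier tissue, stood at 84.2 ± 23.2 CPM in sham, 14.6 ± 9.83 in saline-I/R and 52.9 ± 19.8 in enpatoran-I/R, a difference of -2.54 between sham and saline-I/R (SE 0.55, adjusted p = 0.00263). Nrxn3, the neurexin-3 adhesion gene, fell (-2.20, SE 0.31), as did Ushbp1 (-2.37, SE 0.34) and Sez6l (-3.96, SE 0.83). Pcp4l1, Upp2, Sh3bp4, Stmn2 and Cox8b completed the list with Cacna1e, Pkhd1l1 and Il7. Ushbp1, Stmn2, Cox8b and Pkhd1l1 were also among the leading genes of clusters outside the main one. The part of RNA from those nuclei in the falls was not tested. The rises in main-cluster members shared Mt2, Sh2d5, Hmga2, Kcnma1, Serpina3n, Socs3, Tyms, Selp and Dbn1 with all members and added Plat, Sema7a and Thbs1.

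The second contrast, enpatoran-I/R against saline-I/R, asks what the TLR7 antagonist changed in injured hearts. Over all members, edgeR called no gene of 6322 (0%). By unadjusted p under 0.05 there were 642 genes, a DESeq2 Wald test gave 12 calls, and leaving out the low-count filter in edgeR gave 214. Simulated counts took their spread from expression level alone and left out the differences between hearts in outside members. On them a log2 change of 1 was recovered for 3.5% of the changed genes and a change of 2 for 77.5%. Recovery in the real libraries was not tested, and 0 calls do not show that no gene changed. In the main-cluster members 65 of 5009 genes passed (1.30%), 46 higher (0.918%) and 19 lower (0.379%) in enpatoran-I/R. That number changed with single hearts: it was 7 without saline-I/R replicate 1, 19 without saline-I/R replicate 2, 267 without saline-I/R replicate 3, and 32, 41 and 28 without enpatoran-I/R replicate 1, 2 or 3. Without sham replicate 2 or 3 it was 37 or 41. Both comparisons use the saline-I/R hearts, so a heart that deviates there moves both, and the values of all groups are set side by side below.

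Genes lower in enpatoran-I/R than in saline-I/R in main-cluster members included several near zero in sham. Hmga2 stood at 0 in all sham hearts, 67.5, 107 and 226 CPM in saline-I/R and 0, 7.43 and 0 in enpatoran-I/R. The saline-I/R hearts lay apart from all others, with 90 UMIs against 1 in enpatoran-I/R (ratio 70.4, 95% counting interval 12.3 to 2810; adjusted p = 0.00254). Kcnma1 stood at 0, 4.66 and 0 CPM in sham, 119, 77.9 and 247 in saline-I/R and 4.82, 14.9 and 0 in enpatoran-I/R, with 99 UMIs against 3 (ratio 25.8, 95% counting interval 8.58 to 127; adjusted p = 0.00254). Neither call was lost in any of 13 alternatives. Over all members the adjusted p was 0.176 for both.

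Plat, the tissue plasminogen activator gene, stood at 21.8, 18.6 and 0 CPM in sham, 311, 219 and 136 in saline-I/R and 48.2, 37.2 and 54.9 in enpatoran-I/R. The groups did not overlap, and enpatoran-I/R differed from saline-I/R by -2.21 on the log2 scale (SE 0.42, adjusted p = 0.0111; 0.0903 without saline-I/R replicate 1). Sh2d5 averaged 287 ± 35.1 CPM in saline-I/R and 80.0 ± 41.7 in enpatoran-I/R, a difference of -1.77 (SE 0.33, adjusted p = 0.0126; 0.0792 without saline-I/R replicate 1). Sema7a, a semaphorin gene of immune cells and axons, averaged 90.7 ± 13 CPM in saline-I/R against 14.8 ± 11 in enpatoran-I/R (-2.59, SE 0.58, adjusted p = 0.0292). Its adjusted p was 0.201 without saline-I/R replicate 1, 0.11 without saline-I/R replicate 2, 0.145 without enpatoran-I/R replicate 1 and 0.0835 without enpatoran-I/R replicate 2. Slc20a1, a phosphate importer gene, differed by -1.63 (SE 0.32, adjusted p = 0.016), and without saline-I/R replicate 1 its adjusted p was 0.148, without enpatoran-I/R replicate 2 0.0563 and without enpatoran-I/R replicate 3 0.0776.

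Of the stress list, 3 of 11 tested genes were lower in enpatoran-I/R in main-cluster members (Mt2, Mt1 and Slc39a14), none was higher, and the list's median was -0.75 against 0.01 for all tested genes. Mt2 averaged 325 ± 148 CPM in saline-I/R and 87.9 ± 24.6 in enpatoran-I/R, a difference of -1.84 (SE 0.36, adjusted p = 0.016). Its adjusted p was 0.156 without saline-I/R replicate 1 and 0.0531 without enpatoran-I/R replicate 2. Mt1 differed by -1.42 (SE 0.31, adjusted p = 0.0263), with adjusted p = 0.183 without saline-I/R replicate 1, 0.0745 without saline-I/R replicate 2, and 0.0842 and 0.0972 without enpatoran-I/R replicate 2 or 3. Slc39a14 differed by -1.10 (SE 0.26, adjusted p = 0.0373), and leaving out either sham replicate 2 or 3, saline-I/R replicate 1 or 2, or any enpatoran-I/R heart gave 0.0555 to 0.201. In the other nuclei Mt2 went from 1.12 to 0.516 UMIs per nucleus between saline-I/R and enpatoran-I/R.

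Genes higher in enpatoran-I/R than in saline-I/R were in part those that were lower in saline-I/R than in sham. Nrxn3 stood at 327, 410 and 376 CPM in sham, 77.9, 63.3 and 98.7 in saline-I/R and 227, 372 and 522 in enpatoran-I/R. Every saline-I/R heart lay below all other hearts, and enpatoran-I/R was higher by 2.18 (SE 0.31, adjusted p = 0.00165). Igfbp5, an insulin-like growth factor binding protein gene, stood at 763, 866 and 544 CPM in sham, 280, 341 and 403 in saline-I/R and 853, 1487 and 810 in enpatoran-I/R, a difference of 1.61 (SE 0.26, adjusted p = 0.00311). Adamtsl1, a secreted matrix protein gene, stood at 1133, 1569 and 1142 CPM in sham, 545, 497 and 703 in saline-I/R and 2015, 1412 and 1654 in enpatoran-I/R (1.54, SE 0.22, adjusted p = 0.00165). Kcnk5, a potassium channel gene, averaged 82.2 ± 20.7, 16.9 ± 3.20 and 114 ± 29.1 CPM in the same order (2.70, SE 0.45, adjusted p = 0.00374). No alternative ended these 4 calls.

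Adamtsl1 and Nrxn3 stood higher per nucleus in members than elsewhere. In sham, main-cluster members held 4.39 Adamtsl1 UMIs per nucleus against 0.163 in the other nuclei, and 1.26 Nrxn3 UMIs against 0.0964. Slco2b1, a prostaglandin and organic anion carrier gene, averaged 269 ± 57.3, 67.5 ± 22.6 and 242 ± 38.5 CPM in sham, saline-I/R and enpatoran-I/R (1.80, SE 0.31, adjusted p = 0.00445; 0.0581 without saline-I/R replicate 1). Il7 averaged 246 ± 66.0, 46.1 ± 12.9 and 147 ± 15.3 CPM (1.66, SE 0.34, adjusted p = 0.0165), with adjusted p = 0.148 without saline-I/R replicate 1 and 0.067 without enpatoran-I/R replicate 1. Ushbp1, which was also among the leading genes of other clusters, was higher in enpatoran-I/R by 1.74, Il6st by 1.21 and Efnb2 by 1.11. Their calls were lost in 3, 3 and 7 of 13 alternatives. Without saline-I/R replicate 1 the edgeR adjusted p was 0.113, 0.17 and 0.245. Sez6l, Tppp3, Rfx2, Enpp3 and Dnm3 were higher as well, and Glis1, Mctp2, Mthfd1l, Hif1a and Sh2d4b lower. Among the cardiomyocyte markers, Ttn (1.38, SE 0.34) and Actn2 (1.43, SE 0.36) were higher in enpatoran-I/R than in saline-I/R in the same nuclei, and their part in the genes named here was not tested.

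**Figure D5:**
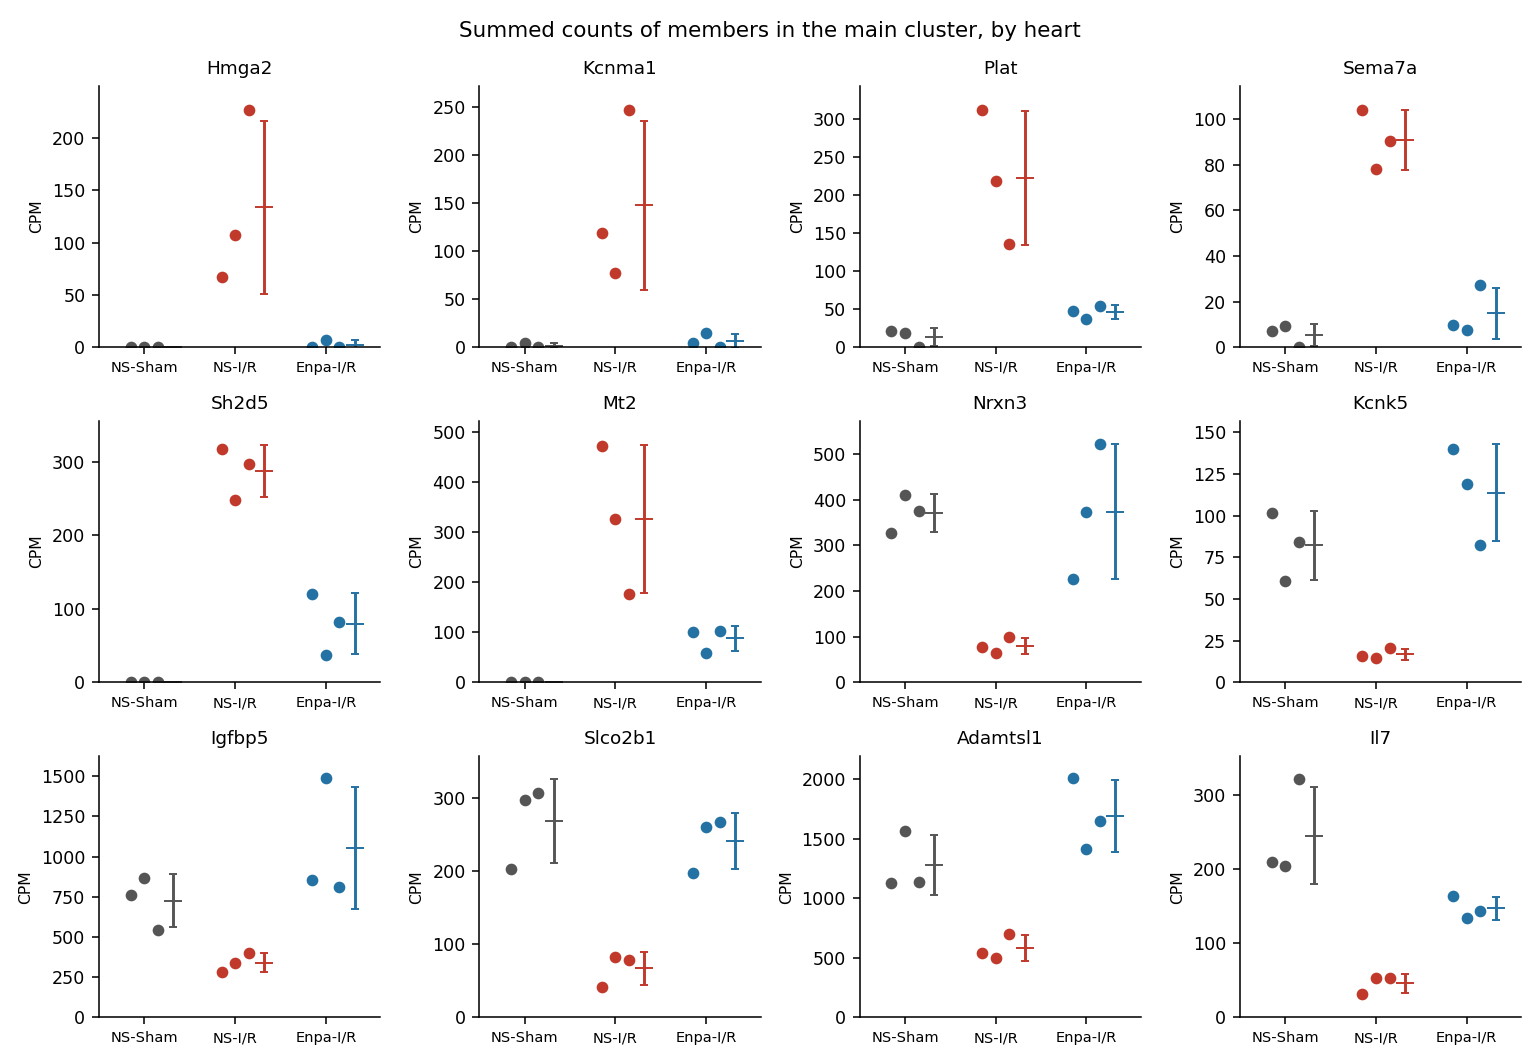
TMM-scaled CPM (vertical axis) of 12 genes summed over the main-cluster members of each heart; each point is 1 heart and the bars show mean ± SD of 3 hearts. Hmga2 is at 67.5 to 226 CPM in NS-I/R and at most 7.43 in Enpa-I/R, and Nrxn3 is at 63.3 to 98.7 CPM in NS-I/R against 227 to 522 in Enpa-I/R.

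Set against sham, enpatoran-I/R hearts showed part of the I/R changes. Over all members 10 of 6322 genes passed (0.158%), 7 higher (0.111%) and 3 lower (0.0475%); without enpatoran-I/R replicate 3, the heart with the single deep nucleus, 366 passed, and without sham replicate 1, sham replicate 2, saline-I/R replicate 1 or enpatoran-I/R replicate 1 none did. Without sham replicate 3 or enpatoran-I/R replicate 2 the number was 2. In main-cluster members 187 of 5009 genes passed (3.73%), 59 higher (1.18%) and 128 lower (2.56%), and 107 to 267 when 1 heart was left out (122 and 107 without sham replicate 2 or 3). Sema3a remained higher there, by 1.79 (SE 0.28, adjusted p = 0.000381), and its difference between enpatoran-I/R and saline-I/R was -0.10 (SE 0.27). Col4a1 was higher by 1.31 (SE 0.23, adjusted p = 0.00109), Lcn2 by 2.19 (SE 0.36, adjusted p = 0.00062) and Serpina3n by 4.45 (SE 0.62, adjusted p = 0.000134). Vegfa was lower, with a log2 difference of -2.18 (SE 0.35, adjusted p = 0.000381). By list, 4 of 11 stress genes, 3 of 14 NF-kB genes and 5 of 17 matrix genes were higher, and 5 of 13 fatty acid genes were lower.

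Whether the I/R response of members differed from that of blood endothelial nuclei was tested in the paired fit over both kinds of nuclei. Of 12601 genes, 57 (0.452%) differed in response between sham and saline-I/R, 30 higher (0.238%) and 27 lower (0.214%) in members. The number was 16 without sham replicate 1, 8 without sham replicate 2, 14 and 30 without saline-I/R replicate 1 or 2 and 163 without enpatoran-I/R replicate 3, and with main-cluster members it was 401. Kcnma1 went from 4.51 to 122 CPM in members while blood endothelial nuclei stood at 26.5 and 24.6, a difference in response of 4.36 (SE 0.73, adjusted p = 0.015). That call was lost without sham replicate 2 (0.0786) or saline-I/R replicate 1 (0.0524). Lcn2 went from 34.9 to 274 CPM in members and from 0.529 to 91.5 in blood endothelial nuclei, so that its fold was smaller in members although its level was higher (-4.44, SE 0.50, adjusted p = 0.000479), and no alternative ended that call. No gene differed in its response to enpatoran over all members (0%), and 58 did with main-cluster members. None of the 22 lymphatic genes passed this test over all members in either contrast. Their median difference in response was -0.52 for saline-I/R against sham, with 6 of 22 positive, and 0.41 for enpatoran-I/R against saline-I/R, with 16 positive. None of 20 tested interferon genes passed either. Their median was 1.35 for saline-I/R against sham (19 positive) and -0.25 for enpatoran-I/R against saline-I/R (7 positive). All tested genes had medians of 0.03 and -0.01. The list medians were not tested. On simulated counts a log2 difference in response of 1 between sham and saline-I/R was recovered for 6.5% of the changed genes, so smaller differences could be missed.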

How the data were processed

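Nuclei were profiled with 10x 3' v3.1 chemistry, 1 library per heart. The deposited matrices hold UMI counts per gene and barcode, raw and not normalized, per the file headers and values. The headers name Cell Ranger 8.0.0, while the submitters' processing notes name Cell Ranger 6.1.1, Seurat and the builds GRCh38 and GRCm39; which build was used is not given in the sources used here. The 9 matrices list 32285 genes. Entries that share a symbol were summed to choose nuclei and to read the rule markers, and the fits kept each gene identifier apart.

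The members and the gene lists were chosen with earlier results of these data known. Replicates are separate hearts. Counts were summed per heart and fitted with edgeR 4.0.16 (R 4.3.3; filterByExpr, TMM, quasi-likelihood test, all 9 libraries, Benjamini-Hochberg adjustment at 0.05); DESeq2 1.42.0 was an alternative. The 11 rule genes were not tested. Members and blood endothelial nuclei were fitted with library as a block, and the 6 genes that chose the blood endothelial nuclei were not tested there. Clustering used scanpy 1.11.5 (2000 variable genes, 30 components, 15 neighbours, Leiden resolution 1). Rule and list genes, mitochondrial genes and some sex-linked genes were left out of it. Scrublet's own threshold marked 0 to 371 barcodes per library, 3 or fewer in 4 libraries, so doublets were kept, and an alternative removed the 107 to 453 highest scores per library; 25 members were among those barcodes. Named genes were up to 12 per direction with the largest change among called genes whose groups did not overlap and which members held at no lower UMIs per nucleus than the other nuclei (up to 4 per direction for differences in response), plus list genes. Counting intervals are at 95% and, like bounds set against 3 counts, cover counting error only. The fits were tested on simulated counts. Alternatives changed the scaling, the low-count filter, the tool, the libraries fitted, the rule, the depth and the doublet and mitochondrial filters, or left out 1 library each.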

Additional observations from a re-analysis of the deposited data

Results flagged for a closer look

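For 8 genes the NS-I/R response relative to NS-Sham differed between members and blood endothelial nuclei of the same hearts by the interaction test of the paired edgeR fit; all values below are log2 differences in response over all members. Kcnma1 differed by 4.36, with members at 4.51 and 122 CPM and blood endothelial nuclei at 26.5 and 24.6 in NS-Sham and NS-I/R. Sybu differed by 3.75, with members at 8.85 and 41.9 CPM and blood endothelial nuclei at 150 and 44.5. Plekhh2 differed by 3.79 (2.08 and 14.1 CPM in members, 53.6 and 22.7 in blood endothelial nuclei), and its call was lost in main-cluster members. Tmem108 differed by 3.74 (11.8 and 61.7 CPM against 530 and 278). Its sign turned with at least 4 markers and in main-cluster members, and Tmem108 leads a cluster outside the main one that holds 12 members.

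Cdh4 differed by -5.39, with members at 104 and 1.82 CPM and blood endothelial nuclei at 35.4 and 26.3. Fam13a differed by -4.45 (177 and 3.42 CPM in members, 76.1 and 35.7 in blood endothelial nuclei). Lcn2 differed by -4.44 (34.9 and 274 CPM against 0.529 and 91.5), with neutrophil markers at 202 to 881 summed CPM in the blood endothelial nuclei of NS-I/R hearts; their part in the result was not tested. AA467197 differed by -6.29 (17.4 and 80.9 CPM in members, 0 and 23.9 in blood endothelial nuclei), a value that depends on the fit's prior count because the blood endothelial nuclei of NS-Sham held none. Calls were lost without single hearts for all of these but Sybu and Lcn2.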

How the results depend on the processing

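Over all members, the 672 genes called between NS-I/R and NS-Sham became 1343 without the low-count filter, 1128 with a 20% mitochondrial limit, 118 with no macrophage gene allowed, 208 with members thinned to equal depth and 104 to 964 when 1 library was left out. The 0 genes between Enpa-I/R and NS-I/R became 214 without the filter, 12 with DESeq2, 17 with at least 4 markers, 65 in main-cluster members, 11 at equal depth and 0 to 20 with 1 library left out. The 10 genes between Enpa-I/R and NS-Sham became 1 with DESeq2 size factors, 528 without the filter, 86 with DESeq2, 0 with the 6 libraries of the contrast, 292 with at least 4 markers, 4 with no macrophage gene, 1 after removing high doublet scores, 82 with the 20% limit, 187 in main-cluster members, 43 at equal depth and 0 to 366 with 1 library left out.

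In main-cluster members (fits chosen after seeing the data), the 787 genes stayed between 529 and 955 with 1 library left out. The 65 genes became 43 with DESeq2, 159 without the filter and 7 to 267 with 1 library left out, and the 187 became 346 without the filter and 107 to 267. The 2601 genes against blood endothelial nuclei became 3957 with main-cluster members and 2168 to 2706 with 1 library left out. The 57 differences in response became 406 without the filter, 312 with at least 4 markers, 401 in main-cluster members and 8 to 163 with 1 library left out. Those for enpatoran, 0, became 71, 25, 58 and 0 to 10. Tmem108 reversed to -0.91 with at least 4 markers and -1.13 in main-cluster members. Of the 62 named genes over all members between NS-I/R and NS-Sham, 942 alternative values kept the call and 253 lost it; the cause of these changes was not tested.

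Samples with the same replicate number did not deviate together over all members (correlations from -0.396 to 0.249). The share of member UMIs outside the main cluster also differed between hearts, so this check cannot decide whether the numbers pair the hearts. With a replicate block the counts were 334, 0 and 0 over all members, where the last was 10 without it, and 744, 77 and 179 in main-cluster members.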
